A study of Mus musculus with 4 samples.

Results

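The regions described here are stretches of open chromatin that lie near the olfactory receptor genes of the mouse, as mapped in embryonic lung. They were chosen by position: peaks of 4 deposited lists were merged where they overlapped or adjoined, and a merged region was kept when it lay within 20 kb of a protein-coding gene whose symbol begins with Olfr. This gave 661 of 307572 merged regions (0.215%), around 1109 placed receptor genes. The DNA within 20 kb of these genes, called the receptor neighbourhoods below, spanned 26.9 Mb, or 1.01% of the 2661 Mb between the first and last peak of each chromosome.

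The study mapped open chromatin by ATAC-seq, in which the transposase Tn5 inserts adapters into DNA that is not wrapped tightly. It used 4 libraries of wild-type lung taken at E15.5, with no other group, genotype or treatment. Whether the replicates came from separate embryos was not stated, so an SD here may hold no more than technical scatter. The permutation p-values below come from the same 4 libraries and may not bear on differences between embryos. Where all 4 differ in the same direction, p takes its smallest possible value whatever the scatter. Whole lung was used, so a site open in few cells and a site open weakly in many cells cannot be told apart.

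Olfactory receptors are G-protein-coupled receptors that bind odorants, and they form the largest gene family of the mouse. The genes sit in tandem clusters on many chromosomes, each gene is short with an uninterrupted coding exon, and a mature olfactory neuron transcribes 1 allele of 1 gene while the rest stay in compact chromatin. Lung is not a tissue in which the family as a whole is known to be used, although a few members have been described outside the nose.

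The promoter sequences below are examples of receptor genes and of other genes beside them, shown for their CG content. They are RefSeq windows on GRCm38.p6, the assembly that mm10 represents, from 250 bases before to 50 bases after the annotated start, written 5′ to 3′ on the gene's own strand with each CG dinucleotide in capitals. Patl1 (chr19:11912149-11912448, plus strand), a factor of mRNA decapping, and Trim68 (chr7:102687278-102687577, minus strand), a ubiquitin ligase, lie in receptor clusters and had a peak over the window in 4 of 4 libraries. Olfr1420 (chr19:11895773-11896072, plus strand) and Olfr557 (chr7:102697966-102698265, plus strand) are the receptor genes nearest to those regions and had a peak over the window in 0 of 4. Zfp174 (chr16:3846973-3847272, plus strand), a zinc finger protein, and its neighbour Olfr15 (chr16:3838725-3839024, plus strand) differed in the same way, at 4 and 0 libraries. Olfr433 (chr1:174041683-174041982, plus strand) is shown because it was a receptor gene with a gene-end peak in every library, although only 1 library had a peak over this window. The windows of Olfr1420 and Olfr15 are annotated to start at ATG and may not hold the promoter. These genes were chosen after their values were seen.
Patl1: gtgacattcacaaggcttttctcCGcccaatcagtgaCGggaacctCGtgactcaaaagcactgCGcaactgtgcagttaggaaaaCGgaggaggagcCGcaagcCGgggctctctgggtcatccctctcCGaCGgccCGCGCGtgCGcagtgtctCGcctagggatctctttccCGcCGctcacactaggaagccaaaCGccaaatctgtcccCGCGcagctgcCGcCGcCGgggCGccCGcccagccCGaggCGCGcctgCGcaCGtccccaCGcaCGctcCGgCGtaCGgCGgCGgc
Olfr1420: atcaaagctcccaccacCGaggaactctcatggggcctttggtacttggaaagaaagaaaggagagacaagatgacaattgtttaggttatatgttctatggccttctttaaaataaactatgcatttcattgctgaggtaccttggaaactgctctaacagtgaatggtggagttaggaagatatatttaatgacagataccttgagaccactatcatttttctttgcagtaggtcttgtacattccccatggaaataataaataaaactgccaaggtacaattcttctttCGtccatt
Trim68: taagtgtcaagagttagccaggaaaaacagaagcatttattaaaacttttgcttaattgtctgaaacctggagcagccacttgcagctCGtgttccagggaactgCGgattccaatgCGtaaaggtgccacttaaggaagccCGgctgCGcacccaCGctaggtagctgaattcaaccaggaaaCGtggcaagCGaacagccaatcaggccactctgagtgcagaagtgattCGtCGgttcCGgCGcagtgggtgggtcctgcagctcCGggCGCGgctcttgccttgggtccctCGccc
Olfr557: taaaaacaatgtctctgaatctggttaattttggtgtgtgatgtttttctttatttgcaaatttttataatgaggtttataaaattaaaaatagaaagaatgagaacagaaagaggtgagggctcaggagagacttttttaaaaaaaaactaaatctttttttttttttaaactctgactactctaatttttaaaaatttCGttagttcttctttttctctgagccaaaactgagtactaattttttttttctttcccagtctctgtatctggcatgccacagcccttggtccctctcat
Zfp174: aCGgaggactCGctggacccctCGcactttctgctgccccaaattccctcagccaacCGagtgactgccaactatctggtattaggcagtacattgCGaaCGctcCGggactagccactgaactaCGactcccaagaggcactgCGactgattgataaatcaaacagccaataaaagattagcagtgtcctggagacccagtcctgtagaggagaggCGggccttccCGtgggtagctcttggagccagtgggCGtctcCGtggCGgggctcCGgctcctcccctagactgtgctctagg
Olfr15: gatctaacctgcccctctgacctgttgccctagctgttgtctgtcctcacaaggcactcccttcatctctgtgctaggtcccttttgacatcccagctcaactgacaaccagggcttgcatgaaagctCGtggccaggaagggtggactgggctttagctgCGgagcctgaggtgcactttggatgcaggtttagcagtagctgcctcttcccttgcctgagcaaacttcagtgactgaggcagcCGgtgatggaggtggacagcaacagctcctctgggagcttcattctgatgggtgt
Olfr433: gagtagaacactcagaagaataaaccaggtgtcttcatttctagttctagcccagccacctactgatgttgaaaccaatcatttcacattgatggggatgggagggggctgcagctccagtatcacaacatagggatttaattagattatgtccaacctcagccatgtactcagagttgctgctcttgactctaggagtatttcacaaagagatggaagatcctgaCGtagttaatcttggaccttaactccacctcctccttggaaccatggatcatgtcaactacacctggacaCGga

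The window of Patl1 held 36 CG dinucleotides, that of Trim68 held 16 and that of Zfp174 held 15. The receptor windows held 2 in Olfr1420, 1 in Olfr557, 3 in Olfr15 and 2 in Olfr433. In Olfr15 low CG content did not come with low GC content, at 55.7% G and C against 57.7% in Zfp174. The other receptor windows shown were lower in GC, at 38% in Olfr1420, 30% in Olfr557 and 45% in Olfr433. Patl1 had 67.3% and Trim68 54.7%.

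Peaks were sparse around receptor genes in every library. Replicates 1 to 4 held 256, 336, 396 and 381 peaks in the receptor neighbourhoods, or 9.53, 12.5, 14.7 and 14.2 peaks per Mb (12.7 ± 2.34, SD, n = 4). Within 20 kb of other protein-coding genes the densities were 68.8, 103.6, 119.6 and 107.0 per Mb (99.7 ± 21.7), and in all other DNA together 51.0, 70.6, 80.2 and 73.1 per Mb (68.7 ± 12.5). The highest receptor value lay below the lowest value of either comparison, and the groups did not overlap.

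Density was thus 7.78-fold lower than near other genes, a log2 ratio of -2.96 ± 0.09 (SD, n = 4), and 5.39-fold lower than in all other DNA, a log2 ratio of -2.43 ± 0.05. Both were lower in 4 of 4 libraries, and each exact two-sided sign-flip permutation test gave p = 0.13, the smallest p that 4 libraries allow. The ratio within a library ran only from 7.22 to 8.29 near other genes, although the number of peaks differed between libraries. Peaks covered 0.496%, 0.825%, 0.885% and 0.940% of the receptor neighbourhoods in replicates 1 to 4 (0.787% ± 0.199), against 7.86% ± 2.49 around other genes. In the 23.9 Mb of receptor neighbourhood more than 20 kb from any other protein-coding gene the log2 ratio to other genes was -3.86, and with a reach of 50 kb it was -2.23.

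**Figure D1:**
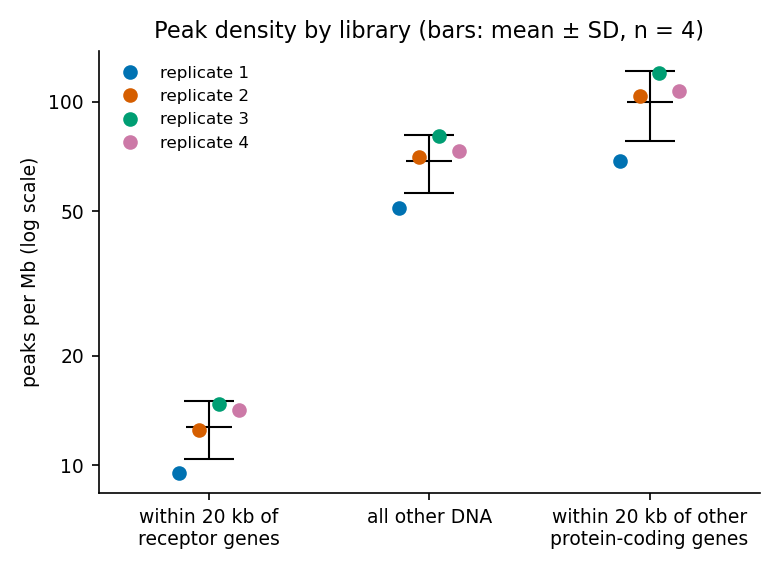
Peaks per Mb (log scale) in the 4 libraries, for DNA within 20 kb of olfactory receptor genes, all other DNA, and DNA within 20 kb of other protein-coding genes, with the mean and SD as bars. The receptor values lie between 9.53 and 14.7 per Mb and none overlaps the other sets, and replicate 1 is lowest in all 3.

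Density was lower at every distance from other genes that was measured, but by very different amounts. Peak summits outside gene bodies were counted by distance from the nearest end of a protein-coding gene that is not an olfactory receptor. Within 5 kb of such an end, receptor neighbourhoods held 101 ± 30.5 summits per Mb against 161 ± 40.9 in other DNA, and the ratio of other to receptor DNA was 1.61 ± 0.157 (SD, n = 4). It was 2.08 ± 0.165 from 5 to 20 kb, 4.09 ± 0.416 from 20 to 50 kb and 5.10 ± 0.729 from 50 to 100 kb. From 100 to 200 kb it reached 10.3 ± 3.44, with 3.62 summits per Mb in receptor DNA and 33.5 elsewhere. Beyond 500 kb, where other DNA was itself sparse at 7.63 per Mb, the ratio was 2.44 ± 0.895. This comparison was added after the densities had been seen and carries no test.

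**Figure D2:**
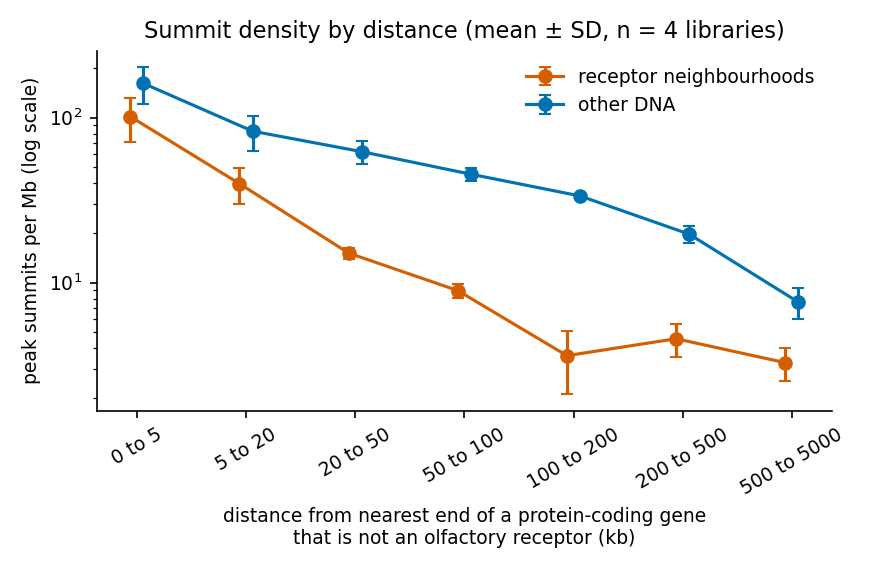
Peak summits per Mb (log scale) by distance in kb from the nearest end of a protein-coding gene that is not an olfactory receptor, in receptor neighbourhoods and in other DNA, as mean and SD over 4 libraries. The lines start close, at 101 and 161 per Mb, and lie farthest apart at 100 to 200 kb, at 3.62 and 33.5 per Mb.

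Of the 661 regions, 359 (54.3%) were found in 1 library, 102 (15.4%) in 2, 79 (11.95%) in 3 and 121 (18.3%, exact 95% binomial interval 15.4 to 21.5, counting error only) in all 4. Over all merged regions 21.5% were open in all 4, and near other protein-coding genes 22.4%. The receptor share was close to both, and regions near each other are not independent, so nothing is read from the gap. What differed was their number: 4.50 regions open in all 4 per Mb against 36.6 near other genes, an 8.14-fold gap. Regions of a single library came from each of them, with 67, 77, 98 and 117 seen only in replicates 1, 2, 3 and 4. A further 54 regions (8.17%, against 8.24% of all regions) were missing only from replicate 1.

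Replicate 1 stands apart across the series. It had the fewest peaks, 134503 against 186199 to 211678, and its median fold enrichment at receptor peaks was 8.83 against 3.73 to 3.90. Its peak names carry a French word for fresh and those of the others the word frozen, while the labels describe frozen lungs for all. Without it the log2 density ratio to other genes was -3.00, and with all of the remaining 3 libraries required, the counts given below became 14 receptor genes in place of 10 and 37 clusters in place of 29. All 8 lung genes tested, Nkx2-1, Foxa2, Sftpc, Foxf1, Tbx4, Tbx5, Pecam1 and Acta2, had a peak within 1 kb of a gene end in every library. So did 70.6% of all protein-coding genes other than olfactory receptors, so such a peak cannot tell tissues apart. Of 12 genes of olfactory neurons 8 had one in every library, a share near that of other protein-coding genes. They were Gnal, Cnga2, Adcy3 and Ano2, which carry the odour signal inside the cell, and the regulators Lhx2, Ebf1, Ldb1 and Emx2. Of the other 4, Omp, the olfactory marker protein, had a peak in 3 libraries and Stoml3 in 2, and the receptor chaperones Rtp1 and Rtp2 had none.

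The ranks of receptor peaks were close to those of other peaks in the full lists, and lower in several alternatives. Fold enrichment is the authors' own value per peak, so it was turned into a percentile rank within each library, where 100 is the strongest peak. The median percentile of receptor peaks was 49.7, 49.3, 51.6 and 45.7 in replicates 1 to 4, and that of peaks near other genes was 52.0, 49.3, 51.6 and 45.7. The mean difference was -0.56 ± 1.12 percentile points (exact two-sided permutation p = 1). Many peaks share a fold value, so equal medians are common. The difference was -3.87 among peaks with a −log10 q of 5 or more (lower in 4 of 4 libraries, exact p = 0.13) and -3.67 in lists of equal length (exact p = 0.25). It widened to -7.15 in DNA over 20 kb from other genes (p = 0.25, exact) and to -10.6 with a reach of 5 kb (lower in 4 of 4 libraries, exact p = 0.13, the smallest possible). Receptor peaks were somewhat narrower, with median widths of 383, 402, 380 and 385 bp against 441, 429, 412 and 465 bp.

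The 121 regions open in all 4 libraries had a median width of 1262 bp, against 300.5 bp for the remaining 540. Their median fold percentile, averaged over libraries, was 76.4, against 76.2 for all regions of the genome open in all 4. At or above the 90th percentile lay 31 of them (25.6%), against 23.3% in the genome. By library their median was 69.1 in replicate 1 and 82.3, 83.9 and 81.4 in replicates 2 to 4. All regions of the genome open in all 4 had a similar drop, at 71.7 against 80.5, 82.9 and 81.4.

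The strongest regions open in all 4 lay mostly at ends of other genes inside or beside the clusters. Of the 121, 37 (30.6%) lay within 1 kb of an end of another protein-coding gene, 10 (8.26%) at an end of a receptor gene, 4 (3.31%) in the body of another gene, 15 (12.4%) at an end of a non-coding gene or pseudogene, and 55 (45.5%) at no annotated end. The 37 regions lay at the ends of 42 genes. Either kind of protein-coding end accounted for 47 regions (38.8%). Among all regions of the genome open in all 4, 23.5% lie at such an end. The 121 regions were chosen for lying within 20 kb of a protein-coding gene, and those of the genome were not. That choice can itself raise the share, so nothing is read from this gap. The share among regions near other genes was not computed. Among the 359 regions of a single library, 11 (3.06%) were at an end of another gene. Median distance to another gene's end was 8.45 kb for regions open in all 4 and 35.0 kb for the rest, and 64 of 121 (52.9%) lay within 10 kb against 162 of 540 (30%).

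By strength the class medians differed but the classes overlapped, as a description without a test. Quartiles were 70.8 and 95.4 at other genes' ends, and 56.4 and 79.2 at no annotated end. Median percentile was 92.3 at other genes' ends, 81.6 at non-coding and pseudogene ends, 75.8 in other gene bodies, 70.3 at receptor gene ends and 67.7 at no annotated end. Of the 14 regions at or above the 95th percentile 10 lay at ends of other genes, and so did all 7 at or above the 98th. The share at gene ends among equally strong regions of the genome open in every library was not computed. These counts therefore describe the receptor neighbourhoods only, and whether they differ from the genome was not tested. No region at a receptor gene end exceeded 85.9.

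**Figure D3:**
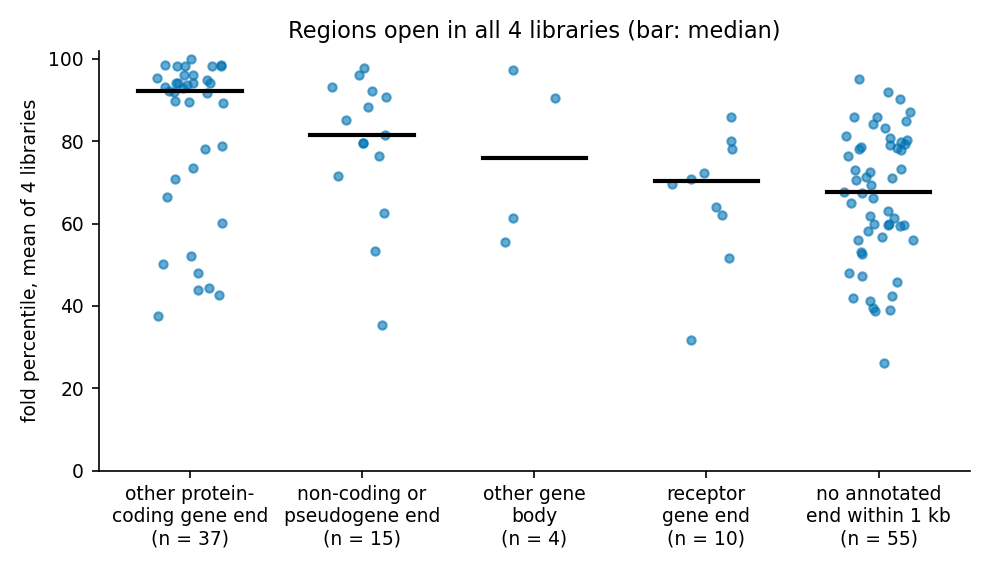
Fold percentile, averaged over 4 libraries, of each of the 121 regions open in all 4, by what the annotation holds within 1 kb, with the class median as a bar. Ends of other protein-coding genes have the highest median, 92.3, and the 10 regions at receptor gene ends lie between 31.7 and 85.9.

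The strongest region was chr11:49241503-49246193 at the start of Mgat1, the enzyme that opens complex N-glycan synthesis, with fold values of 377.8, 107.7, 109.5 and 124.5 in replicates 1 to 4 and a percentile of 99.9 ± 0.04 (SD, n = 4). All 4 libraries placed it in the top 1% of their peaks. Its nearest receptor gene, Olfr1393, lies 17679 bp away, near the edge of the 20 kb reach. Another region, inside Mgat1, chr11:49248196-49252272, ranked at 97.3 ± 0.77.

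Core histone genes next to a chromosome 13 cluster came next. Region chr13:21714156-21719252 over H2ac13, H2bc13 and H3c10 had percentiles of 98.3, 99.1, 99.1 and 98.03, and chr13:21720630-21723636 at H2bc14 had 97.8, 98.7, 98.9 and 98.4. The deposited folds were 161.6, 61.8, 50.1 and 36.7 at the first and 140.7, 51.1, 46.2 and 41.4 at the other, highest in replicate 1, as its folds were in general.

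Zfp174 (chr16:3845332-3849519) had folds of 116.9, 56.6, 48.5 and 44.5, and its region lay 5418 bp from Olfr15. Patl1 (chr19:11911429-11913548) had folds of 132.7, 52.7, 35.7 and 44.2, at 14476 bp from Olfr1420. On chromosome 14, chr14:52013027-52024260 held the ends of Tmem253 and of the zinc finger gene Zfp219 (98.3 ± 0.71). Region chr14:51085699-51093157 held those of Ang, or angiogenin, and Rnase4, a ribonuclease of the same family (98.2 ± 0.63). It also had 3 transfer RNA (tRNA) genes within 1 kb, so position does not assign it to the ribonuclease genes alone.

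Transfer RNA genes were a further source. Of 12 tRNA genes within the receptor neighbourhoods, on chromosomes 11, 13 and 14, 11 had a peak within 1 kb in all 4 libraries, against 267 of 403 in the genome (66.3%). Of the 121 regions 6 lay within 1 kb of a tRNA gene. The strongest without a protein-coding end was chr14:51061955-51066409, with 3 tRNA genes, whose percentiles were 96.5, 98.02, 98.4 and 97.8. It lay 3901 bp from Olfr750. Region chr13:21709284-21712052, with 2 tRNA genes, averaged 92.2 ± 3.46.

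Counted from the genes' side, 79 other protein-coding genes had an end inside the receptor neighbourhoods, and 42 of them (53.2%) had a peak at a gene end in every library. Over all other protein-coding genes this held for 70.6%. By symbol, 10 of 11 zinc finger genes (Zfp, Zscan and Zkscan), 3 of 3 Trim genes, 4 of 4 histone genes and 3 of 4 ribonuclease genes were open. Of 2 Ifi genes 0 were open, and of the remaining 55 genes 22 (40%). These groups were formed after the values were seen. No peak in any library was found for 23 genes (29.1%), among them, chosen after the values were seen, Epx, the peroxidase of eosinophils, Fcer1a, a subunit of the IgE receptor, and Tlr11.

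Regions open in all 4 were found in 29 of 40 clusters, where a cluster is 2 or more receptor genes with gaps of at most 1 Mb. The remaining 11 clusters held none, and 1 of those had no region of any kind. Of the 29, 17 had at least 1 such region at another gene's end, in 4 every one lay there, and in 12 none did. Beside the clusters, 1 of 9 solitary receptor genes, Olfr370, had shared regions, 2 in number.

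Large clusters held fewer shared regions per Mb than small ones, which was not tested. The 15 clusters of 20 or more genes held 913 receptor genes and 54 shared regions, or 2.54 per Mb, and the 25 smaller clusters 65 in 5.23 Mb, or 12.4 per Mb. Clusters also differed in how much of their DNA lay near other genes. Around a pair of receptor genes on chromosome 11, 0.0439 of 0.0855 Mb lay more than 20 kb from other protein-coding genes. Around the largest cluster it was 4.71 of 4.75 Mb. The part of this in the contrast was not tested. In the largest, 222 genes on chromosome 2 (chr2:85330967-90401674), 36 regions were found, 30 of them in 1 library and 2 in all 4, which is 0.421 per Mb. Its peak counts were 10, 10, 9 and 18 in replicates 1 to 4. Of these 15 clusters 4 had no shared region. They were 37 genes on chromosome 2 with 3 regions, 35 on chromosome 9 with 16, 25 on chromosome 16 with 5, and 21 on chromosome 6 with 24. In the chromosome 9 cluster 15 of the 16 regions were seen in 1 library.

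The chromosome 7 cluster of 126 genes (chr7:102476773-105369317), which surrounds the beta-globin genes, held 70 regions, 10 of them in all 4. Trim68 (96.1 ± 1.35) and Trim21 (89.8 ± 4.90), ubiquitin ligases of which Trim21 is a cytosolic antibody receptor, supplied 2 of these. Region chr7:102512232-102514230 lay at a pseudogene, Gm8556, 42.5 kb from Rrm1, with percentiles of 90.8, 94.7, 95.7 and 92.0.

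The clusters with the most shared regions per Mb were small. A pair of receptor genes on chromosome 11 (chr11:52144593-52213987) had 6 shared regions, or 70.2 per Mb, of which 1 was at Skp1, a subunit of SCF ubiquitin ligases (94.1 ± 2.69). The 6 receptor genes of a chromosome 4 cluster (chr4:43695000-43855463) had 11, or 65.6 per Mb, with 3 at other genes' ends, including Reck, a membrane inhibitor of metalloproteinases (94.2 ± 1.38), and Hrct1 with Spaar (93.7 ± 1.15). The 9 of a chromosome 15 cluster (chr15:98186011-98498406) had 13, or 44.0 per Mb, with 4 at the ends of Ccdc184, Kansl2, Lalba and Zfp641. Even in these clusters most shared regions, 5 of 6, 8 of 11 and 9 of 13, were not within 1 kb of another protein-coding gene's end.

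**Figure D4:**
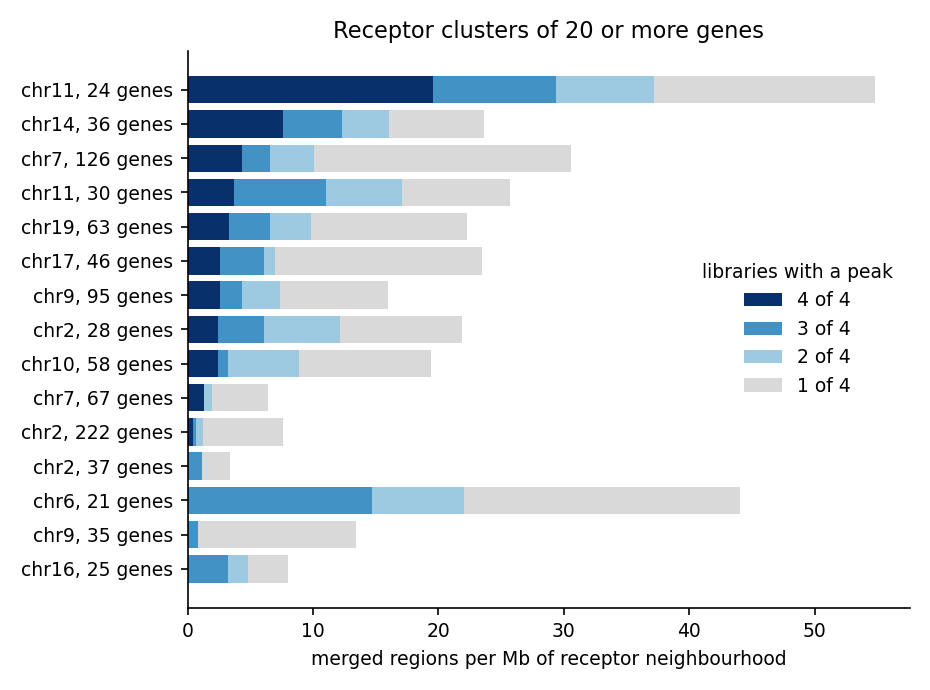
Merged regions per Mb of receptor neighbourhood in the 15 clusters of 20 or more receptor genes, coloured by the number of libraries with a peak and ordered by the density of regions open in all 4. The cluster of 24 genes on chromosome 11 is the densest in shared regions, at 19.6 per Mb, and 4 clusters have none.

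Of the 121, 42 lay more than 20 kb from any other protein-coding gene's end. The strongest was chr8:83520202-83521583, 19509 bp from Olfr370 and 45.2 kb from Ndufb7, with percentiles of 96.7, 94.3, 94.9 and 94.6 in replicates 1 to 4. The libraries were within a few percentile points of each other there. Between the 2 genes of the chromosome 11 pair, chr11:52163216-52168690 spanned 5475 bp at 83.1, 89.9, 88.8 and 86.7. The most isolated of the named regions was chr2:86018408-86022084 at an end of Olfr1033, 499 kb from Fads2b, with percentiles of 82.6, 76.7, 80.5 and 80.0. It was 1 of the 2 shared regions in the cluster of 222 genes, and the other, 1163 kb from Ptprj, averaged 26.1 ± 28.2.

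Few receptor genes had a peak at their own ends. A peak within 1 kb of either annotated end was found in every library for 10 of 1109 genes (0.902%), in 3 libraries for 6, in 2 for 11, in 1 for 16 and in none for 1066 (96.1%). Among other protein-coding genes 17.9% had none. By library, 25, 21, 26 and 24 receptor genes had such a peak. Any region within 20 kb was present for 395 genes (35.6%), and one open in all 4 for 111 (10.01%). With windows of 0.5 kb and 2.5 kb the count of 10 became 6 and 16.

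The spread over libraries differed among the 10 genes. Olfr543 had percentiles of 88.1, 79.4, 84.7 and 87.7 in replicates 1 to 4, but its peak summits lay at -1615 to -1246 bp, upstream of the annotated start and outside the 1 kb window that the peaks overlapped. A summit of any peak lay inside that window in 2 libraries. Olfr1373 had 69.1, 81.4, 80.5 and 81.4, and Olfr1033 had 82.6, 76.7, 80.5 and 70.8. Olfr433 had 58.2, 80.5, 72.3 and 78.4, with summits at -1132 to -883 bp from the start, outside the window printed above. These 4 genes stood between 72.3 and 85.0 on average.

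Olfr1342 averaged 70.9 ± 9.003 (SD, n = 4) and Olfr94 70.8 ± 8.73, and the gene end of Olfr94 lies 0.704 kb from Ubd, a ubiquitin-like modifier. In Olfr90 the values were 25.2, 84.4, 79.0 and 78.4, and in Olfr279 10.5, 79.4, 77.2 and 88.7. Replicate 1 was far below the others at both. Olfr70 averaged 51.8 ± 26.0 and Olfr552 31.7 ± 32.8, where replicate 1 was high at 80.0 and the others were 7.36, 18.4 and 21.1. Peak summits lay downstream of the annotated start in Olfr94, at 695 to 856 bp. In Olfr70 they lay downstream at 5250 to 6922 bp, past the gene's far end in replicates 2 and 3. So did those of Olfr1373 (1596 to 1658 bp), Olfr90 (1407 to 2545 bp) and Olfr552 (1251 to 1368 bp), past the gene's far end. In Olfr279 they lay upstream, at -639 to -331 bp. For Olfr1342 the RefSeq start used, 118690450, is inside the annotated gene, and the summits were at -2677 to -2262 bp from it. They stood at 118692712 to 118693127, around the gene's own upstream end at 118693034. The start used for Olfr1373, 52145528, is also inside its gene. Olfr1033 had no matched start.

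Of the 6 fixed receptors described outside the nose, 2 had a gene-end peak in at least 1 library and none had one in all 4, while 43 of all 1109 receptor genes had one in at least 1 library. Olfr78, a short-chain fatty acid and lactate receptor of carotid body and vessels, Olfr16 and Olfr2 had no region within 20 kb in any library. Olfr558, a relative of Olfr78, had no gene-end peak, though 7 regions lay within 20 kb and 1 was open in all 4. Olfr544 had a gene-end peak in replicates 3 and 4 only, at 75.02 and 45.7. Olfr1393, described in kidney, had one in replicates 2, 3 and 4, at 40.6, 42.3 and 21.1, and lies 0.845 kb from Mgat1.

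The narrower RefSeq promoter windows of receptor genes held no shared peak. Of 1109 receptor genes 944 were matched by symbol, with 948 windows. A peak of every library overlapped 0 of the 948, and a peak of 1 to 3 libraries overlapped 6. For other genes 13202 of 20315 windows (65.0%) were overlapped in all 4 libraries. The triplet ATG stood at the annotated start in 72.4% of receptor windows and 5.13% of others. Where the annotation begins at the coding sequence in this way, the window may not hold the promoter.

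The windows also differed in sequence. CG was counted, which reads the same on both strands. At least 1 CG was found in 632 of 948 receptor windows (66.7%) and in 19647 of 20315 other windows (96.7%). The median count was 1 in receptor windows (interquartile range 0 to 2, highest 13) and 14 in others, and 10 or more stood in 0.211% against 59.4%. Median GC content was 35% against 57%.

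Among windows of other genes the share with a peak rose with the number of CG. Without any CG, 21 of 668 other windows (3.14%) were open in all 4 libraries, and with 1 to 4 CG 556 of 4453 (12.5%), while with 5 to 9 it was 44.0% and with 10 or more 93.2%. Receptor windows gave 0 of 316, 0 of 598, 0 of 32 and 0 of 2 in the same classes. A peak of at least 1 library overlapped 85 of the 668 other windows without CG and 1397 of the 4453 with 1 to 4. The receptor counts were 1 of 316 and 2 of 598. With 5 to 9 CG it was 2148 of 3129 other and 3 of 32 receptor windows. With 10 or more it was 11777 of 12065 other and 0 of 2 receptor windows. The part of CG content in the receptor result was not tested.

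**Figure D5:**
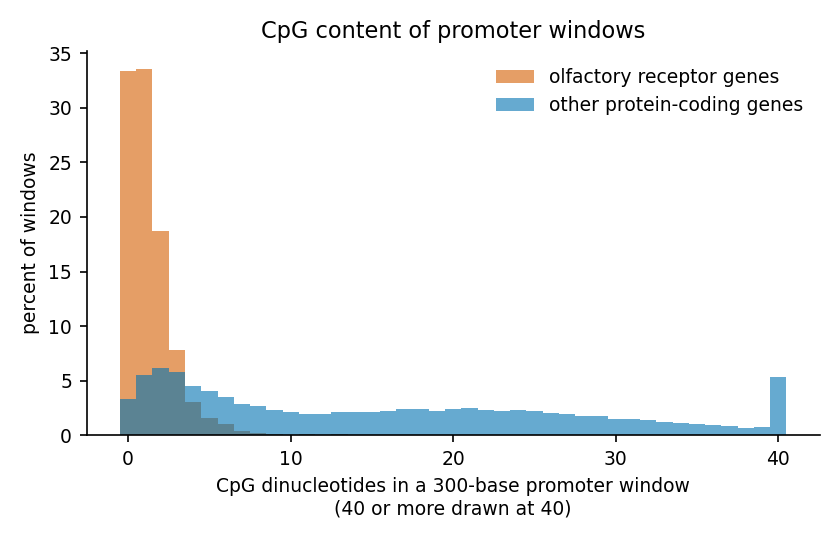
Percent of 300-base promoter windows by number of CG dinucleotides, for olfactory receptor genes and other protein-coding genes. Receptor windows pile up at 0 to 2, with a median of 1, and other windows spread widely around a median of 14.

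Vomeronasal receptors, the pheromone receptors of the nose, were similarly poor in peaks. Around 352 of these genes there were 10.1 ± 3.33 peaks per Mb (SD, n = 4) and 331 regions, 40 of them open in all 4 (12.1%), and 4 genes (1.14%) were open at their ends. The 4 libraries gave 5.83, 14.0, 10.3 and 10.2 per Mb, which overlaps the range of olfactory receptors. Trace amine receptors had 13.1 ± 7.13 per Mb around 15 genes and bitter taste receptors 18.4 ± 4.07 around 35, and none of either was open at its ends in every library.

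Keratins and keratin-associated proteins, a clustered family, were not like this. The set was taken by symbol and was not split by the tissues that use its members. Their 109 genes had 70.7 ± 11.98 peaks per Mb, near the 68.7 of all other DNA, and 17 of them (15.6%) were open at their ends. The lowest library gave 55.9 per Mb for keratins and the highest 14.7 for olfactory receptors.

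Reads from near-identical receptor genes may not be placed uniquely, and how such reads were handled is not given in the sources used here. The effect of this on the receptor neighbourhoods was not tested.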

How the data were processed

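ATAC-seq peaks of 4 libraries, 1 group, were analysed from 1 deposited list of narrow peaks per library, called separately per sample. Build mm10 and the tools MACS3 3.0.1, SAMtools 1.18, Bowtie2 2.5.2, Trim Galore, deepTools, bedtools 2.31.0 and FastQC 0.12.1 appear in the submitters' processing notes, and their roles, parameters, duplicate and multi-mapping filters are not given in the sources used here. The fold enrichment is the authors' ratio of summit signal to background. The deposited −log10 p and −log10 q and the deposited score, a truncated 10-fold multiple of the latter, were used only for the filter at a −log10 q of 5. The authors gave each summit as an offset in bp. Read depth is unknown, so no depth interval is given, and the number of peaks per list stands in for it.

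Peaks on 19 autosomes, X and Y were kept, and 1245 to 1814 per library lay elsewhere. Genes came from a RefSeq table of GRCm38.p6 with 348 entries that carry scaffold positions left out, which placed 1109 of 1110 receptor genes. Densities were compared by exact two-sided sign-flip permutation tests over libraries, with Python 3.11.15, numpy 2.4.6, pandas 2.3.3, scipy 1.17.1 and matplotlib 3.10.9. The interval functions were tested on simulated data.

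Named were the clusters with the most and fewest shared regions per Mb, the 10 strongest shared regions, the 10 strongest over 20 kb from other genes' ends, all receptor genes with a gene-end peak in every library and 6 fixed receptors. Other names were chosen after their values were seen. The members and lists were chosen with earlier results of these data known. Alternatives were a reach of 5 or 50 kb, a −log10 q of 5, lists of equal length, 3 of 4 libraries, leaving out each library, other gene-end windows, cluster gaps and overlap rules. Counting summits in place of peaks, and density by distance, were added after seeing the data.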

Additional observations from a re-analysis of the deposited data

Results flagged for a closer look

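In 6 of 47 sets of 4 library values, replicate 1 lay far from the other 3 by its gap over the whole range, each time as the lowest, and chance flags about 1 in 20 such sets. The fold percentile of the region at Tmem253 and Zfp219 was 97.3 in replicate 1 and 98.6 to 98.8 in the others. At chr10:78486786-78488760, near the end of a long non-coding RNA, it was 68.5 against 89.99 to 91.3, and at chr14:52044800-52046020 it was 65.2 against 85.3 to 86.8. Among gene-end peaks it was 69.1 against 80.5 to 81.4 for Olfr1373, 25.2 against 78.4 to 84.4 for Olfr90 and 10.5 against 77.2 to 88.7 for Olfr279. Over all regions of the genome open in all 4, replicate 1 also had the lowest median percentile, 71.7 against 80.5 to 82.9. Replicate 1 is also the library with the fewest peaks, the highest fold values and the peak names that say fresh, and their part in these values was not tested.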

How the results depend on the processing

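No paired analysis was possible because the study has 1 group, so no replicate numbers are shared between groups, and the density and percentile comparisons are already made within each library. The log2 density ratio to other genes ran from -3.86 to -2.23 and that to all other DNA from -3.33 to -1.79 over all alternatives, and leaving out each library gave -3.00 to -2.93 and -2.45 to -2.41. An exact permutation test over 3 libraries cannot go below p = 0.25. The difference in fold percentile turned positive, to 0.66, with a reach of 50 kb, was -3.87 with a −log10 q of 5 or more and -3.67 in lists of equal length, and was -0.75 to 0 with 1 library left out.

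Other values under the alternatives were as follows. The share of regions open in all libraries was 26.3% (26.25) with a −log10 q of 5 or more, 23.7% in lists of equal length, 12.5% in DNA over 20 kb from other genes, 30.3% for at least 3 of 4 libraries, and 22.1% to 29.1% with 1 library left out, where 3 were required. The share of these at another gene's end was 12.1% with a reach of 5 kb, 22% for 3 of 4 libraries, 52.9% within 10 kb and 23.6% to 28.8% with 1 library left out. It is 0 by construction in DNA over 20 kb from other genes. Bases covered were 0.402% and 1.51% with a reach of 5 and 50 kb and 0.312% far from other genes. Clusters with a shared region were 17 with a reach of 5 kb and 30 to 37 with 1 library left out. Open receptor genes numbered 16 for 3 of 4 libraries, 6 and 16 with windows of 0.5 and 2.5 kb, 9 when summits were required in the window, and 10 to 14 with 1 library left out. Depth is unknown, so absence of a peak does not show that a site is closed.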
